A study of Mus musculus with 12 samples.

Results

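Among 12 cortical RiboTag libraries of the mouse, 5 carried high and 7 carried low levels of the transcripts that cells raise when amino acids run short, and each set held libraries of both genotype labels and of both kinds of housing. The libraries were chosen by their own measured Chac1 and Phgdh levels: they were called high where Chac1 was at least 4.2 and Phgdh at least 3.3 on the deposited log2(FPKM + 1) scale, and low where both were below. FPKM values are fragments scaled to transcript length and to library size, so levels are per length. No library fell between the sets, and single-housed wild type had low libraries only. Because these values chose the sets, every difference between high and low libraries is given as a description, without a test.

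The study pulled tagged ribosomes out of parvalbumin interneurons and sequenced the messenger RNA bound to them. All mice were C57BL/6 and carried PV-Cre k/+ with RiboTag k/k, in which Cre made from the parvalbumin locus switches on a tagged ribosomal protein. Wild-type and Nptx2 KO mice were kept in groups or singly for at least 4 weeks after weaning, and single housing is called social stress in the labels. Each of the 4 genotype and housing groups had 3 libraries, and no age or sex was stated. The pulldown sees parvalbumin-expressing cells of the cortex and whatever RNA binds the beads unspecifically, and in such bulk samples fewer cells of a type and less RNA per cell cannot be told apart.

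The high set held CCGTCC and GTCCGC of group-housed wild type, CGATGT of group-housed mice labelled KO, and CTTGTA and AGTCAA of single-housed mice labelled KO, each named by its index. The low set held AGTTCC of group-housed wild type, ATGTCA and GTGAAA of group-housed mice labelled KO, and CAGATC of single-housed mice labelled KO. It also held all 3 libraries of single-housed wild type, which were ACAGTG, the library TGACCA, and the library GCCAAT. Nptx2, the gene targeted in the KO, was 2.31 to 2.62 in group-housed wild type, 2.23 to 2.41 in single-housed wild type, 2.37 to 2.74 in group-housed libraries labelled KO and 2.43 to 2.68 in single-housed libraries labelled KO. Nptx2 was therefore not lower in the libraries labelled KO, which are called by that label throughout. Parvalbumin itself, Pvalb, was abundant in all libraries, at 9.65 to 9.99 in the high and 9.94 to 10.28 in the low set.

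The amino acid response is a branch of the integrated stress response. Uncharged transfer RNAs activate the kinase GCN2, and other stresses activate PERK, HRI or PKR; each phosphorylates the translation factor eIF2, which slows protein synthesis as a whole while translation of the transcription factor ATF4 increases. ATF4, paired with C/EBP family partners, binds composite C/EBP-ATF elements near genes for amino acid synthesis, amino acid import and transfer RNA charging.

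Short stretches of promoter are shown because these composite elements are where ATF4 is known to act. The letters searched were TGATGNAA on both strands, in the 250 bases before each RefSeq start on build GRCm38.p6, and no other motif was searched. They were in 12 of 52 genes with a RefSeq promoter among the amino acid genes described below (23.1%) and in 197 of 8792 genes among all genes tested (2.24%). Counted by promoter, the shares were 12 of 61 (19.7%) and 211 of 11438 (1.84%). The amino acid genes include known ATF4 targets and were listed with earlier results of these data known. Their higher share is therefore a description and no independent support for ATF4 acting in these libraries. Each sequence is written 5′ to 3′ on the strand of its gene, with the matched letters in capitals; a match to the opposite strand reads as the reverse complement. The Chac1 window is chr2:119351019-119351086 on the plus strand, the Asns window chr6:7693210-7693262 on the minus strand, and the Nupr1 window chr7:126625543-126625610 on the minus strand. The Atf3 window is chr1:191183406-191183473 on the minus strand, the Pycr1 window chr11:120643814-120643881 on the minus strand, the Aars window chr8:111033700-111033767 on the plus strand, and the Slc7a11 window chr3:50443623-50443709 on the minus strand.

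Chac1: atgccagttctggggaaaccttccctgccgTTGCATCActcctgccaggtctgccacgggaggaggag
Asns: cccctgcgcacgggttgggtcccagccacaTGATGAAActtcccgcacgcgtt
Nupr1: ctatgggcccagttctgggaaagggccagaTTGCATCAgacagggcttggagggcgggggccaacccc
Atf3: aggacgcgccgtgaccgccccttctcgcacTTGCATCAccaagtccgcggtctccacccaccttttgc
Pycr1: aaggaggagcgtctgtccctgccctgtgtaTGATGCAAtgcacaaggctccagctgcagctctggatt
Aars: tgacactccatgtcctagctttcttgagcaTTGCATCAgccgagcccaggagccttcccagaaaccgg
Slc7a11: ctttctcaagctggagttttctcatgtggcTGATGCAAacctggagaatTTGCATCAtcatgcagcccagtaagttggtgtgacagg

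The first 6 belong to genes whose levels did not overlap between high and low libraries, and Slc7a11 is shown as a gene with a match on each strand whose levels did overlap. Counting Chac1 and Phgdh, which do not overlap by the rule itself, matches were in 8 of 29 amino acid genes that were higher without overlap (27.6%) and in 4 of the other 23 (17.4%), namely Jdp2, Pck2, Slc7a11 and Vldlr. Among non-overlapping higher genes outside the amino acid lists the letters were in 9 of 229 (3.93%), and among non-overlapping lower genes in 6 of 272 (2.21%). A match is a run of letters and not a measured binding site, and a window without one shows only that these letters are not there.

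Chac1, for an enzyme that degrades glutathione, and Phgdh, for the first enzyme of serine synthesis from glucose, are the genes that defined the sets. Chac1 (ENSMUSG00000027313, GRCm38 chr2:119351229-119354381) was at 4.93 in CCGTCC, 4.99 in GTCCGC, 5.15 in CGATGT, 4.82 in CTTGTA and 5.01 in AGTCAA, against a lowest of 3.28, a median of 3.37 and a highest of 3.63 in the low libraries. Phgdh (ENSMUSG00000053398, chr3:98313170-98339990) was at 4.13 in CCGTCC, 4.13 in GTCCGC, 4.51 in CGATGT, 4.14 in CTTGTA and 4.27 in AGTCAA, against 2.08, 2.33 and 2.54 in the low libraries. Nearest to the thresholds were CTTGTA on the high side of Chac1 and ACAGTG on its low side, and CCGTCC on the high side of Phgdh and TGACCA on its low side.

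Mthfd2 and Asns, both markers of the same response, were not used to choose the libraries. Mthfd2, for a mitochondrial folate enzyme, was at 3.96 in CCGTCC, 4.00 in GTCCGC, 4.07 in CGATGT, 3.82 in CTTGTA and 4.01 in AGTCAA, and between 2.68 and 2.84 in the low libraries with a median of 2.78. Asns, for asparagine synthetase, was at 7.46, 7.33, 7.37, 7.31 and 7.43 in the same order, and between 6.32 and 6.58 in the low libraries with a median of 6.38. Both genes divided the libraries without overlap, as the plot of levels by label group shows. Asns was 0.95 higher in the mean of the high libraries on the log2 scale, with an SD of 0.09 among libraries of a set.

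**Figure D1:**
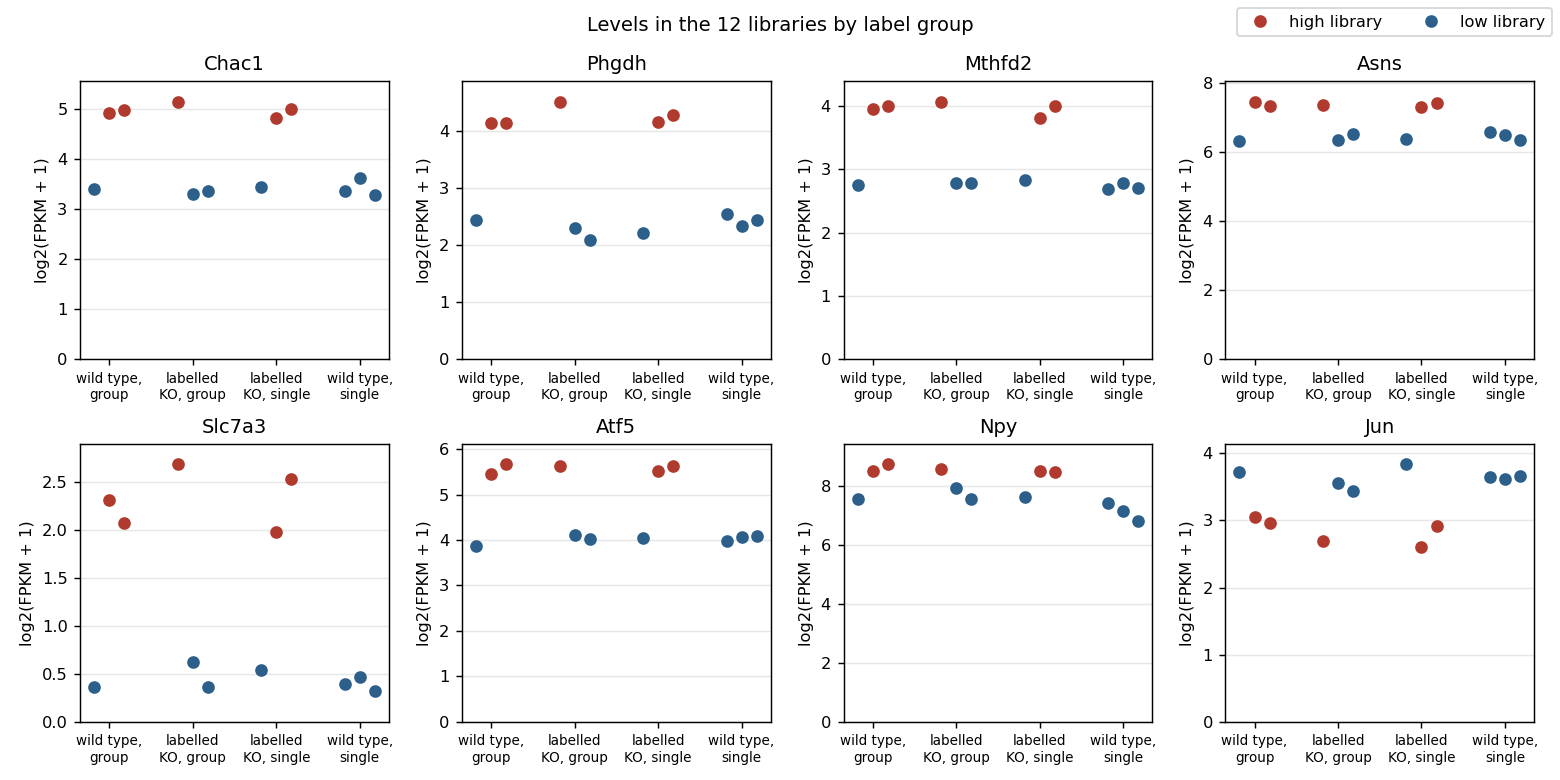
Level of 8 genes in each of the 12 libraries as log2(FPKM + 1), one point per library, by label group, with high libraries in red and low libraries in blue. For Chac1, Phgdh, Mthfd2, Asns, Slc7a3, Atf5 and Npy the 5 red points lie above every blue point, for Jun they lie below, and single-housed wild type has blue points only.

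Differences were computed for 12714 genes, those with a log2 value of at least 1 in at least 3 libraries, leaving out Chac1 and Phgdh. A gene could pass this filter through 1 set of libraries alone. Slc7a3, Atf3 and Ostn did so, with all low libraries below 1, and the counts that follow include such genes. All 5 high libraries were above all 7 low libraries at 349 genes, which is 2.75% of those compared, and below all of them at 362 genes, or 2.85%. Few of them differed by much: 48 of the higher and 8 of the lower genes differed by at least 0.5, and 13 of the higher and 1 of the lower differed by at least 1. Of the 48 and the 13, 24 and 8 were members of the 4 amino acid gene lists, which held 65 of the 12714 genes compared. In the plot of all genes, many genes with differences over 0.5 had overlapping sets.

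**Figure D2:**
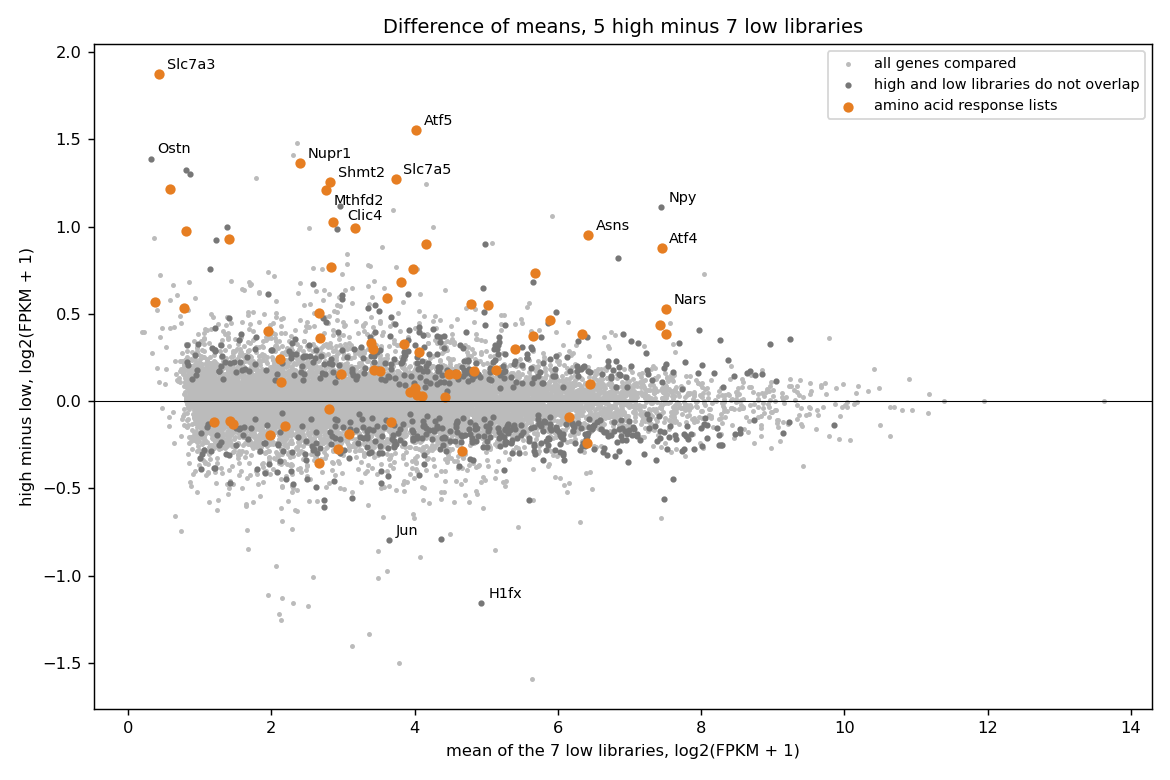
Mean of the 5 high minus mean of the 7 low libraries for each of 12714 genes (y axis) against the mean of the low libraries (x axis), both in log2(FPKM + 1), with members of the amino acid lists in orange and other non-overlapping genes in dark grey. Slc7a3 and Atf5 stand at the top with differences of 1.87 and 1.55, and H1fx, at −1.16, rests on 1 library.

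The 4 amino acid lists named 73 genes, of which 68 were in the table, 67 passed the filter and 65 were outside the rule. Of these 65, 36 were higher and 3 lower without overlap, and 26 overlapped, where 2.75% of all genes were higher and 2.85% lower. The 36 were higher within each label group that held both kinds of library, as non-overlap requires. Their median difference was 0.62 in group-housed wild type, 0.79 in group-housed libraries labelled KO and 0.72 in single-housed libraries labelled KO. In that last group, the Y-linked gene Ddx3y was at 3.62 in CTTGTA and 3.45 in AGTCAA, both high, and at 0 in CAGATC, the low library. High or low and Y-linked signal therefore cannot be told apart in that group, for these or later within-group values. With overlapping members counted too, the difference was positive in all 3 groups at 13 of 16 transcription factors and stress targets and 9 of 14 synthesis genes. It was so at 7 of 15 transporters and 16 of 20 cytosolic synthetases. In the same order, 0, 1, 2 and 2 members were negative in all 3. Over all genes compared, the difference was positive in all 3 groups at 17.4% and negative in all 3 at 18.5%.

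The transcription factors and stress-induced targets came first by role. Of 16 such genes outside the rule, 9 were higher without overlap (56.3%, against 2.75% of all genes) and none lower. Their median difference was 0.37 against 0.00 over all genes. Atf4 (chr15:80255184-80257541), the factor at the centre of the response, was at 8.23 in CCGTCC, 8.46 in GTCCGC, 8.42 in CGATGT, 8.28 in CTTGTA and 8.23 in AGTCAA, against a lowest of 7.34, a median of 7.41 and a highest of 7.59 in the low libraries. Atf5 (chr7:44812256-44816658), a related factor that is also translated when eIF2 is phosphorylated, was at 5.46, 5.67, 5.63, 5.53 and 5.62 in that order, against 3.87, 4.05 and 4.12. Neither gene overlapped, and the sets stood further apart for Atf5 (1.55) than for Atf4 (0.88).

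Other genes of the list lay at lower levels. Nupr1, for a stress-induced chromatin-associated protein, was at 3.33 to 4.00 in high and 2.19 to 2.53 in low libraries, a difference of 1.36. Eif4ebp1, for a repressor of cap-dependent translation, differed by 1.22, and Sesn2, for a leucine-binding inhibitor of mTORC1 signalling, by 1.03. Stc2, for a secreted glycoprotein, differed by 0.97, Atf3, for a stress-induced factor, by 0.57, and Ddit3, for the factor CHOP, by 0.37. Atf3 was at 0.32 to 0.55 in the low libraries and passed the filter through the high libraries alone. Gpt2, for a mitochondrial alanine transaminase, differed by 0.30.

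Several known ATF4 targets did not separate. Cebpg, which encodes a C/EBP partner of ATF4, differed by 0.36 and Cebpb by 0.24, both with overlapping sets. Ddit4, for an inhibitor of mTORC1, had a difference of 0.08 and Ppp1r15a, for the subunit that directs dephosphorylation of eIF2, one of −0.05. Without CCGTCC both changed sign, to −0.03 and 0.14. Vldlr, for a lipoprotein receptor, was 1.03 lower in high libraries of group-housed wild type and 0.96 higher in the high library of group-housed mice labelled KO. Trib3, for a pseudokinase that binds ATF4, lay under the filter, at 0.39 to 1.23 in high and 0.07 to 0.30 in low libraries. Gdf15 and Fgf21 were not analysed here.

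Synthesis of serine, one-carbon units, asparagine and proline gave the highest share. Of 14 genes outside the rule, 9 were higher without overlap (64.3%, against 2.75% of all genes) and none lower, with a median difference of 0.56. Psph and Psat1, which complete the serine route begun by Phgdh, differed by 0.99 and 0.68. In the mitochondrial folate cycle, Shmt2 was at 3.92 to 4.40 in high and 2.74 to 2.96 in low libraries, a difference of 1.25. Mthfd2 (1.21), Aldh1l2 (0.53) and Mthfd1l (0.40) were higher without overlap too. Their cytosolic counterparts overlapped: Shmt1 had a difference of −0.35 and Mthfd1 one of 0.03. Pycr1 and Aldh18a1, of proline synthesis, differed by 0.93 and 0.59.

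The amino acid transporters split by member. Of 15, 7 were higher (46.7%) and 1 lower (6.67%) without overlap, with a median difference of 0.17. Over all genes these shares were 2.75% and 2.85%, and for so short a list the lower share is near that. Slc7a3 (chrX:101079210-101086020), a carrier of cationic amino acids, was at 2.30 in CCGTCC, 2.07 in GTCCGC, 2.68 in CGATGT, 1.98 in CTTGTA and 2.53 in AGTCAA, against a lowest of 0.33, a median of 0.39 and a highest of 0.62 in the low libraries. This was the largest difference outside the rule among genes without overlap, 1.87. The pseudocount of 1 lessens it because the low levels are near 0. All low libraries were below the filter's log2 value of 1, so Slc7a3 passed it through the high libraries alone. Slc7a5 and Slc3a2, the light and heavy chains of the LAT1 exchanger for large neutral amino acids, differed by 1.27 and 0.73. Slc7a1, a second cationic carrier, differed by 0.77 and Slc1a4, a carrier of neutral amino acids, by 0.76.

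Slc38a2 and Slc38a7, of the glutamine-carrying SLC38 family, were higher by 0.17 and 0.18 without overlap. Slc7a6 was lower without overlap, by 0.19 on the log2 scale (2.85 to 2.96 in high and 3.04 to 3.14 in low libraries). Slc7a11, for the cystine-glutamate exchanger, was at 1.91 to 2.02 in 4 high libraries and 1.07 in CGATGT, and at a median of 1.98 in the low ones. Slc6a9, for a glycine transporter, was 0.73 to 1.10 higher in the high libraries labelled KO and 0.09 lower in group-housed wild type.

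Cytosolic aminoacyl-tRNA synthetases, which charge transfer RNAs with their amino acids, were the next group. Of 20, 11 were higher (55%) and 2 lower (10%) without overlap, with a median difference of 0.31. Over all genes these shares were 2.75% and 2.85%, and for so short a list the lower share is near that. Cars, for cysteine, was at 4.90 to 5.48 in high and 3.97 to 4.42 in low libraries, a difference of 0.90. Wars, Mars and Nars followed with differences of 0.56, 0.55 and 0.53. Yars (0.47), Sars (0.44), Gars (0.38), Aars (0.38), Lars (0.33), Farsb (0.30) and Tars (0.28) completed the higher set.

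Hars, for histidine, and Qars, for glutamine, were the synthetases that were lower without overlap. Hars was at 6.13 to 6.20 in high and 6.31 to 6.49 in low libraries, with within-group differences of −0.20, −0.19 and −0.22. Qars had a difference of −0.29. Among the 7 that overlapped, Iars had a difference of 0.33 and Kars one of −0.09, which ran from −0.23 (without CTTGTA) to −0.03 (without TGACCA) as single libraries were left out. Of 16 mitochondrial synthetases, 1 (Mars2) was higher without overlap (6.25%) and none lower. For so short a list this is near the 2.75% and 2.85% over all genes. The median difference of the 16 was 0.05.

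**Figure D3:**
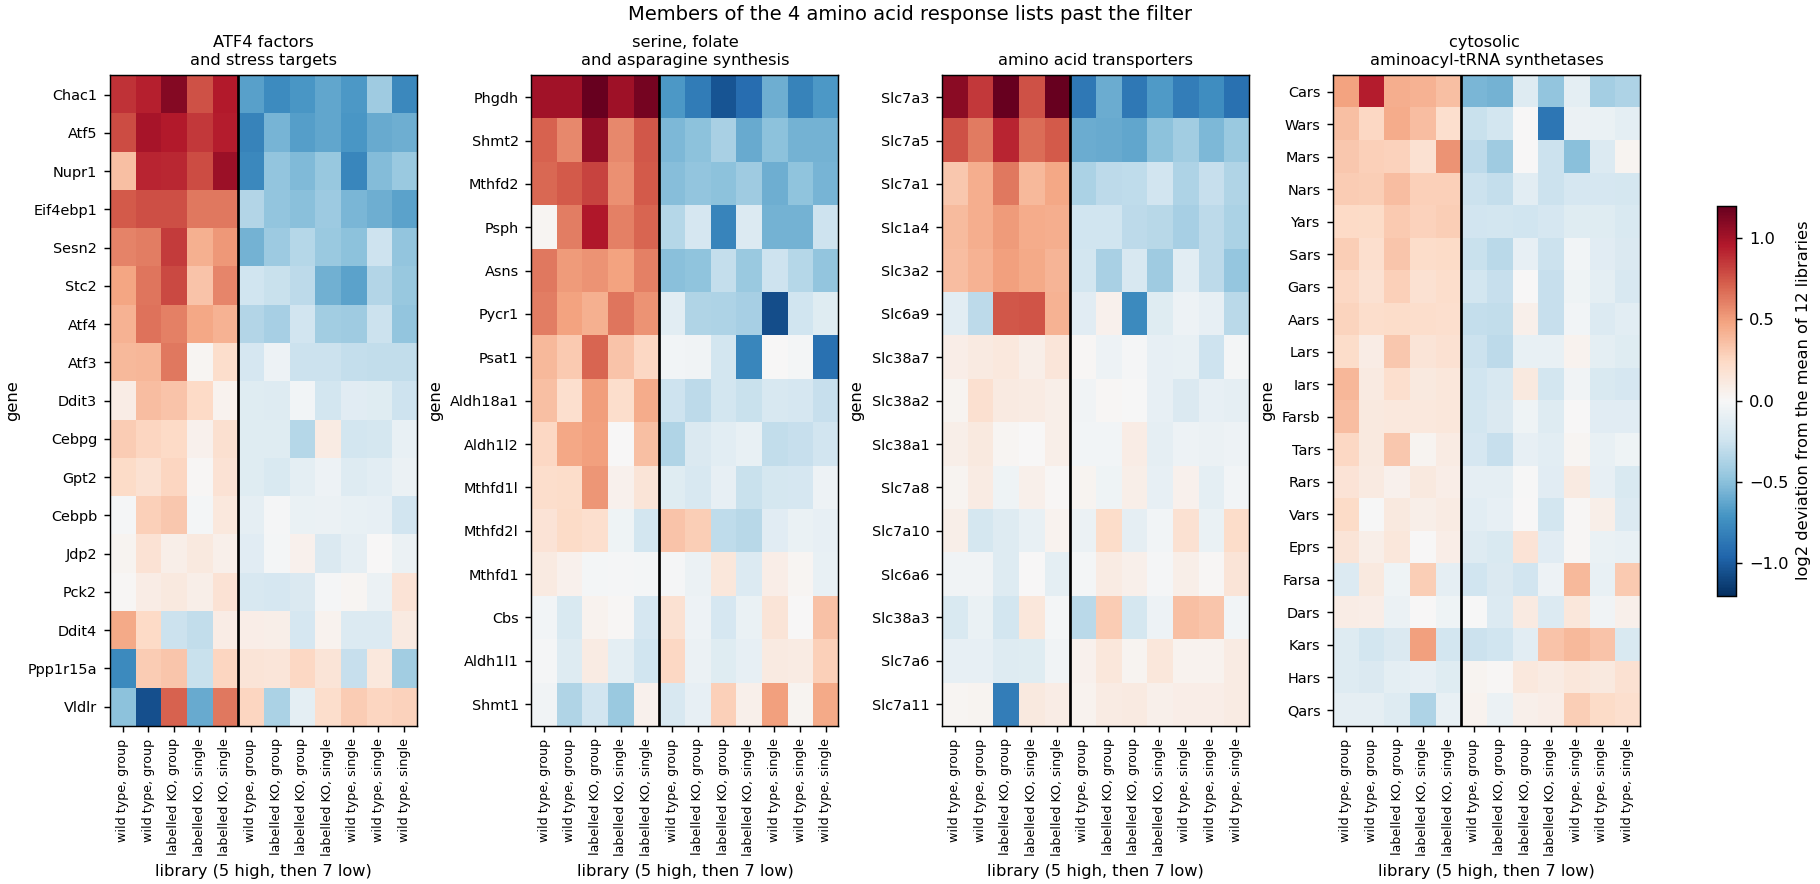
Deviation of each library from the gene's mean over 12 libraries, in log2 units, for the 67 members of the 4 amino acid lists past the filter, with the 5 high libraries left of the black line and the 7 low libraries right of it, each labelled by its group. Genes are ordered by difference within a list, so that Phgdh, Slc7a3, Chac1 and Cars head the columns and Hars, Qars, Slc7a6, Slc7a11 and Vldlr lie at the foot.

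Other stress branches were set beside these lists. Of 14 eIF2 kinases and regulators, Eif2s1 and Eif2s2, which encode the alpha and beta subunits of eIF2, were higher without overlap by 0.11 and 0.27, and the list's median was 0.01. Among 23 endoplasmic reticulum chaperones and quality-control genes, none was higher or lower without overlap. Over all genes 2.75% were higher and 2.85% lower, and none is near that share for so short a list. The median of the 23 was 0.08 overall but 0.02, −0.19 and 0.18 within the 3 mixed label groups. Herpud1, for a ubiquitin-like membrane protein of that compartment, was highest of these at 0.47. Hspa5, for the chaperone BiP and named after its values were seen, ranged from 5.50 to 6.33 in high and from 4.96 to 7.003 in low libraries. Of 17 heat shock genes, 1 was higher without overlap, Dnaja1 (5.88%), again near the share over all genes for so short a list. The heat shock median within groups was 0.01, −0.07 and 0.22.

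**Figure D4:**
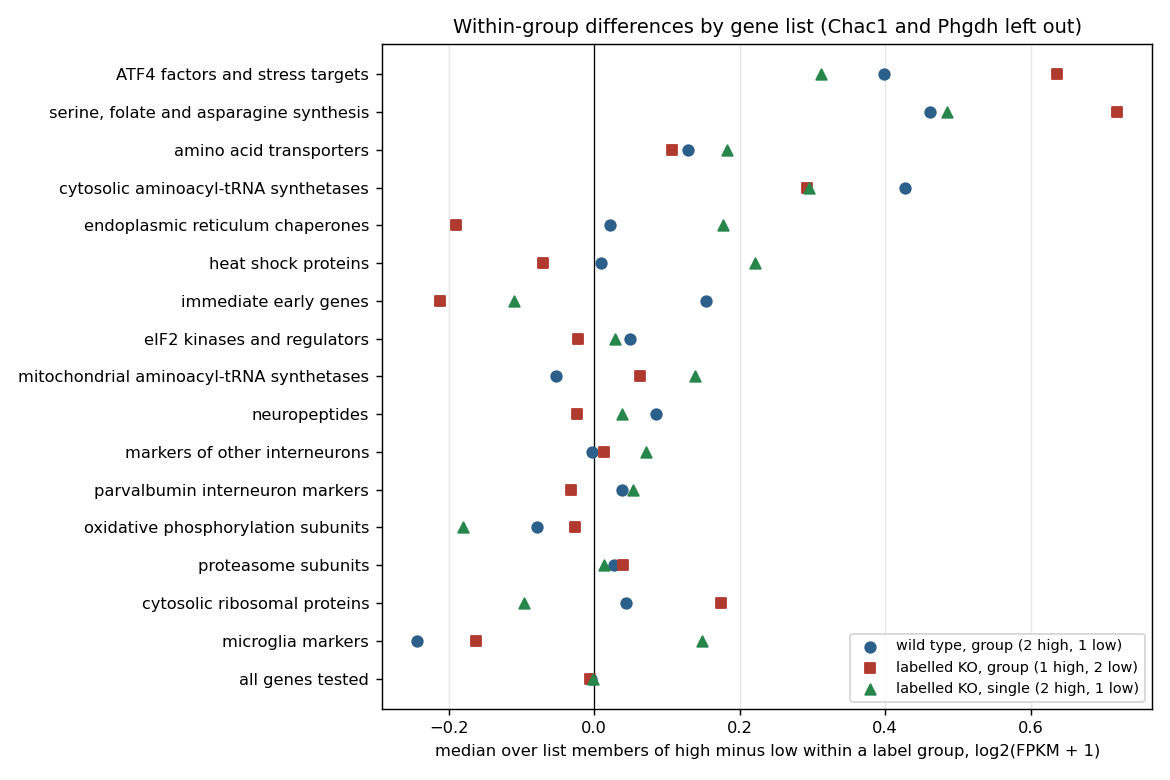
Median over list members of the high minus low difference within each label group that held both kinds of library, on the log2(FPKM + 1) scale, for 16 gene lists and all genes. The 4 amino acid lists lie between 0.11 and 0.72 in all 3 groups, while endoplasmic reticulum chaperones run from −0.19 to 0.18 and all genes lie between −0.01 and 0.00. In single-housed libraries labelled KO, high and low libraries also differ in Y-linked signal.

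Outside the amino acid lists, the neuropeptide transcripts Npy and Cort were among the higher genes. Npy (chr6:49822710-49829507), for neuropeptide Y, was at 8.50 in CCGTCC, 8.74 in GTCCGC, 8.58 in CGATGT, 8.50 in CTTGTA and 8.47 in AGTCAA, against a lowest of 6.82, a median of 7.55 and a highest of 7.95 in the low libraries. The sets did not overlap, and the difference was 1.06, 0.82 and 0.84 within the 3 mixed groups. Cort, for the somatostatin-like peptide cortistatin, was at 5.71 to 6.29 in high and 4.77 to 5.25 in low libraries, a difference of 0.90. Npy and Cort were the 2 of 17 neuropeptide genes that were higher without overlap (11.8%, against 2.75% of all genes). None was lower without overlap, while 6 of the 17 had a lower mean. Sst, for somatostatin, and Tac1, for substance P and related peptides, had differences of 0.19 and 0.32 with overlap, and that of Sst was 0.12 without ACAGTG.

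Ostn, for the secreted peptide osteocrin, differed by 1.39, at 1.38 to 1.94 in high and 0.14 to 0.71 in low libraries. Ostn thus passed the filter through the high libraries alone. Clic4, for a chloride intracellular channel protein, was at 3.89 to 4.22 against 2.87 to 3.01, a difference of 1.12 with no overlap. Cdkn1a, for the cyclin-dependent kinase inhibitor p21, was at 2.05 to 2.27 against a lowest of 0.84 and a median of 1.21. Its difference was 0.92 with no overlap. Zfp715, for a zinc finger protein, differed by 1.30, but its low libraries ran from 0.07 to 1.94 and its difference within single-housed libraries labelled KO was 0.29.

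The lower genes included an immediate early factor. Jun (chr4:95049034-95052222), for a subunit of the AP-1 transcription factor, was at 3.04 in CCGTCC, 2.96 in GTCCGC, 2.70 in CGATGT, 2.61 in CTTGTA and 2.91 in AGTCAA, against a lowest of 3.43, a median of 3.64 and a highest of 3.84 in the low libraries. The sets did not overlap, with within-group differences of −0.72, −0.80 and −1.08. Fos and Egr1, activity-induced factors like Jun, overlapped and changed sign with the label group. Fos had within-group differences of 0.47, −0.67 and 0.12, and Egr1 of 0.60, −0.38 and −0.08. Of 31 immediate early genes, 2 were lower without overlap, Jun and Jund (6.45%), and none was higher. For so short a list this is near the 2.85% and 2.75% over all genes.

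H1fx, for a linker histone, had the most negative difference, −1.16. It was listed at 0 in CGATGT and at 4.66 to 4.76 in the other high libraries, against 4.79 to 5.05 in the low ones, and without CGATGT the difference was −0.21. Lrrc8a, for a subunit of the volume-regulated anion channel, had a difference of −0.79, at 2.94 to 4.17 in high and 4.26 to 4.48 in low libraries. Stmn4, a neuronal stathmin that binds tubulin, was at 6.86 to 6.95 against 7.27 to 7.71. Fam71e1 (−0.60), Tcap (−0.57), Cd24a (−0.56), Pik3ip1 (−0.49), Dusp16 (−0.47), Apol8 (−0.47) and Sh3bgr (−0.46) were next. Atp5j2, for a subunit of ATP synthase, had a difference of −0.45.

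Oxidative phosphorylation subunits leaned lower. Of 79, 10 were lower and 1 higher without overlap, with a median difference of −0.08 and within-group medians of −0.08, −0.03 and −0.18. Ndufb2, of complex I, was at 5.59 to 5.89 in high and 5.93 to 6.24 in low libraries. Mitochondrial ribosomal proteins had 6 of 77 lower (7.79%) and 3 higher (3.90%), and cytosolic ribosomal proteins 0 of 84 lower and 3 higher (3.57%), where all genes had 2.85% lower and 2.75% higher. Of 35 proteasome subunits, Psma4 (−0.22) and Psmb7 (−0.21) were lower without overlap (5.71%) and 1 was higher (2.86%), which for so short a list is near the share over all genes. The higher genes had a median longest transcript of 3228 bases and 47.8% GC, the lower genes 2473 bases and 52.8%, and all genes 3165 bases and 49.9%; the part of length and base composition in the differences was not tested.

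Markers of other cells were compared between the same sets. Markers of astrocytes, oligodendrocytes and their precursors, microglia, endothelium, excitatory neurons, blood, choroid plexus and non-cortical neurons held no gene without overlap in either direction. Over all genes 2.75% were higher and 2.85% lower, and for each of these short lists none is near that share. The choroid plexus list came down to 1 gene and the endothelial list to 4. All 11 oligodendrocyte, 5 precursor and 5 blood markers had higher means in the high set. So did 9 of 12 excitatory and 8 of 13 astrocyte markers. Means were lower at 8 of 13 microglia, 3 of 4 endothelial and 7 of 11 non-cortical markers. The difference was positive in all 3 mixed label groups at 7 of 12 excitatory markers and negative in all 3 at none. Over all genes these shares were 17.4% and 18.5%. It was positive in all 3 at 1 of 11 oligodendrocyte, 1 of 5 precursor and 0 of 5 blood markers. The part of other cells in the differences was not tested. No listed gene in the table was at 0 in every library. Flt1 and Folr1, markers of endothelium and choroid plexus, were not analysed here. Summed FPKM of 12 excitatory markers was 335 to 392 in high and 303 to 380 in low libraries, and that of 13 microglia markers was 44.8 to 60.6 and 48.9 to 65.0. The 13 astrocyte markers summed to 206 to 229 and 193 to 224, and the 5 blood markers to 114 to 354 and 96.6 to 304. The 27 parvalbumin interneuron markers summed to 6962 to 7211 in high and 6973 to 7497 in low libraries. None of the 27 was higher and 2 were lower without overlap (7.41%, against 2.85% of all genes).

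Markers of other interneurons moved with the sets in their sum. The 10 in the table summed to 704 to 832 in high and 399 to 613 in low libraries, without overlap. Npy was the 1 of them that was higher without overlap by itself (10%, against 2.75% of all genes). Without Npy, a sum added after values were seen, the other 9 came to 343 to 406 and 287 to 370, which overlap. Their part in the higher Npy and Cort was not tested. Of the 10, 7 had a higher and 3 a lower mean in the high libraries, with a median difference of 0.14 and a range from −0.08 (Calb2) to 1.11 (Npy).

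**Figure D5:**
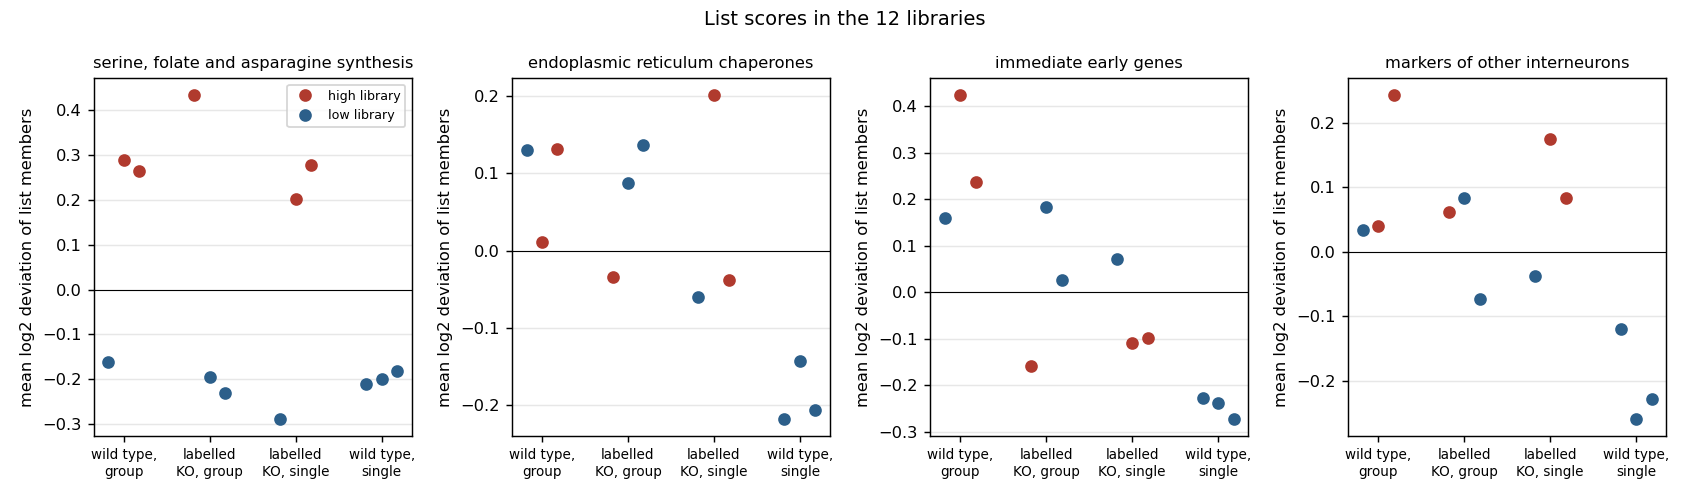
List score of each library, the mean over list members of the log2 deviation from the gene's mean over 12 libraries, by label group, for 4 gene lists, with high libraries in red and low in blue and a separate y scale in each panel. For serine, folate and asparagine synthesis the red points (0.20 to 0.44) stand clear of the blue points (−0.29 to −0.16), whereas for the other 3 lists the colours mix.

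List scores were compared library by library. The serine, folate and asparagine score, computed without Phgdh, was 0.20 to 0.44 in high and −0.29 to −0.16 in low libraries, with single-housed wild type at −0.21 to −0.18. The immediate early gene score was −0.16 to 0.42 in high and −0.27 to 0.18 in low libraries, and single-housed wild type was lowest at −0.27 to −0.23. A principal component analysis used 12716 genes, Chac1 and Phgdh among them, and its sign was set so that the high libraries had a positive mean. The first component (14.1% of variance) placed high libraries at 6.36 to 12.5 and low ones at −14.8 to 4.16. Without the amino acid lists, 12649 genes gave a first component with 13.6% of variance in which CGATGT, a high library, was at 1.19 and GTGAAA, a low one, at 7.84.

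Whether the sets followed the labels was tested, since the rule did not use them. High libraries were 2 of 6 in single and 3 of 6 in group housing, and 3 of 6 labelled KO and 2 of 6 wild type. The Y-linked genes Ddx3y and Eif2s3y were at 3.20 to 3.62 in 5 libraries, all single-housed, and listed at 0 in the other 7, and 2 of those 5 and 3 of those 7 were high. In each of these 3 comparisons Fisher's exact test, two-sided, gave p = 1 and an adjusted p of 1, where the smallest p possible was 0.0152 for housing and genotype and 0.00126 for Y-linked signal. A p of 1 in designs this small does not show that the sets are independent of the labels. Within single housing, the 3 wild-type libraries were low and 2 of the 3 labelled KO were high.

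The label comparisons were then fitted with limma across 12716 genes, with Benjamini-Hochberg adjustment over all of them and a threshold of 0.05. The question of the study was how gene expression in these interneurons differs by genotype and housing. Single against group housing gave 5 genes in wild type (0.0393% of those tested) and 1 in mice labelled KO (0.00786%). KO-labelled against wild type gave 0 genes in group housing (0%, with 465 at an unadjusted p under 0.05) and 5 in single housing (0.0393%), and the interaction gave 1 (0.00786%). Named after their values were seen, the calls were Fos, Egr1, Fhdc1, 2700099C18Rik and A530032D15Rik for housing in wild type, Ccdc71 for housing in mice labelled KO and for the interaction, and 2700099C18Rik, Ccdc71, Fhdc1, Gm12751 and Hmgb1-ps1 for genotype in single housing. With a term for high or low library, Ccdc71 was no longer called in the interaction, where Tenm4 was, and genotype in single housing lost 2700099C18Rik and gained Tenm4. The comparisons share groups of libraries.

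Of the 67 amino acid genes, none passed in any of the 5 limma comparisons. At an unadjusted p under 0.05 there were 10 (14.9%) in the housing comparison of wild type, where 12.3% of all genes had such a p, and 0 in that of KO, where 4.36% did. There were 1 (1.49%) and 4 (5.97%) in the genotype comparisons of group and single housing, against 3.66% and 7.93% of all genes, and 6 (8.96%) in the interaction, against 7.71%. In wild type, where single housing had 0 and group housing 2 high libraries, their median difference was −0.20 against 0.00 over all genes. Hars had the lowest adjusted p of them there, 0.298 by limma, at 0.25 ± 0.08 (SE).

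Chac1, on which the sets were chosen, had a mean of 4.44 ± 0.90 (SD, n = 3) in group-housed and 3.43 ± 0.18 in single-housed wild type, a difference of −1.01 ± 0.59 (SE, limma adjusted p = 0.513). The low library of group-housed wild type, AGTTCC, was at 3.40, inside the 3.28 to 3.63 of single housing.

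Fos and Egr1 were 2 of the 5 genes that differed between single-housed and group-housed wild type, a comparison in which Ddx3y was at 3.21 to 3.53 in all 3 single-housed libraries and at 0 in all 3 group-housed ones. Housing and Y-linked signal therefore cannot be told apart there. Fos fell by 1.91 ± 0.23 (SE, limma adjusted p = 0.0225) in the single-housed libraries and Egr1 by 1.74 ± 0.21 (adjusted p = 0.0225). With the term for high or low library the differences were −1.93 ± 0.28 and −1.71 ± 0.25, and the adjusted p was 0.132 for both, so that neither passed. The number of genes called in this comparison was 1 without CTTGTA, 1 without AGTCAA, 2 without GTGAAA, 2 without ACAGTG, 9 without AGTTCC and 12 without CAGATC. In the low libraries alone, Fos was at 3.42 in AGTTCC of group housing and at 1.76 to 1.89 in single-housed wild type. Fhdc1, a formin-family gene named after its values were seen, fell by 0.84 ± 0.08 (adjusted p = 0.00938) and by 0.94 ± 0.07 with the term (adjusted p = 0.00189).

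Npy, whose high and low libraries did not overlap, was looked at in the same comparison. Its difference, single minus group housing in wild type, was −1.13 ± 0.36 (SE, limma adjusted p = 0.287) and −0.52 ± 0.18 with the term (adjusted p = 0.428). For a gene without overlap the term takes up part of this difference by construction, so the change is a description. The low library AGTTCC was at 7.55, above the 6.82 to 7.43 of single-housed wild type and below the 8.50 and 8.74 of the high libraries CCGTCC and GTCCGC.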

How the data were processed

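Ribosome-associated RNA was measured in 12 libraries, 4 groups of 3, stated by the labels to be biological replicates. The authors deposited log2(FPKM + 1) values for 13190 genes, and the submitters' processing notes name HISAT2, StringTie, limma and GRCm38, in versions not given in the sources used here. The libraries' sorted values differed by at most 0.0351, so the deposited log2 values were already quantile normalized, which removes overall differences between libraries. FPKM values are not counts, depth is unknown and no counting interval is given. Columns carry a group and an index but no replicate number; every column was used. The deposited sheet of the authors' own comparisons was not used.

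The filter, a log2 value no lower than 1 in 3 or more libraries, kept 12716 genes, and 13131 IDs matched GENCODE M21 on GRCm38. Differences are means of high minus means of low libraries of log2(FPKM + 1), so differences of weakly expressed genes come out too small. Label groups were compared with limma 3.58.1 in R 4.3.3, a mean per group over all 12 libraries with a variance trend (8 residual degrees of freedom), after the code was tested on simulated data. Membership was tested with Fisher's exact test (scipy 1.17.1), adjusted over 3 tests. Promoters were RefSeq's, on GRCm38.p6.

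Named genes were Chac1, Phgdh, Mthfd2, Asns, the 12 largest and 12 most negative non-overlapping differences of one sign in every mixed label group among protein-coding genes with ordinary symbols, up to 5 members per list by size, and every member of the amino acid lists. Members of the 30 lists, and the sets themselves, were chosen with earlier results of these data known. Nptx2 was added as the targeted gene. Alternatives were another pseudocount, filter and centring, other fits, subsets of libraries, and leaving out each library.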

Additional observations from a re-analysis of the deposited data

Results flagged for a closer look

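Of 198 sets of values tested, the 5 high and the 7 low libraries at each of 99 genes named in the text, 19 held 1 library that stood apart from the rest of its set by Dixon's 95% criterion; chance alone marks about 1 in 20 sets. All values are log2(FPKM + 1). Library CGATGT, the high library of group-housed mice labelled KO, accounted for 5: Nars at 8.11 (others 8.02 to 8.04), Cort at 6.29 (5.71 to 5.86), Herpud1 at 5.60 (5.97 to 6.10), Slc7a11 at 1.07 (1.91 to 2.02) and H1fx listed at 0 (4.66 to 4.76). It also stood alone on the second principal component (12.2% of variance), at 23.4.

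Among the other high libraries, CTTGTA stood apart in Qars at 4.16 (others 4.38 to 4.45) and in Kars at 6.62 (5.90 to 5.97). GTCCGC did so in Cars at 5.48 (4.90 to 5.01), CCGTCC in Farsb at 5.89 (5.64 to 5.65) and AGTCAA in Hspa5 at 6.33 (5.50 to 5.66). Among the low libraries, TGACCA was low in Pycr1 at 0.73 (1.40 to 1.67) and high in Tcap at 5.84 (5.49 to 5.63). ATGTCA was high in Atf3 at 0.55 (0.32 to 0.41), CAGATC low in Wars at 4.15 (4.75 to 5.03) and AGTTCC high in Atp5j2 at 8.01 (7.46 to 7.61). ACAGTG was low in Slc38a7 at 3.26 (3.41 to 3.52) and GCCAAT low in Cebpb at 1.99 (2.11 to 2.21). ATGTCA was high in Calb2 at 2.40 (1.56 to 1.85), and CAGATC was low in Ccdc71 at 1.56 (3.81 to 3.94). CAGATC was the only single-housed library labelled KO in the low set. Ccdc71 was lower in that label group as a whole. Its difference from group-housed libraries labelled KO was −2.04 ± 0.17 (SE, limma adjusted p = 0.0025).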

How the results depend on the processing

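No named gene changed sign where it was called non-overlapping. Non-overlap itself requires this for subsets of libraries, means within label groups and another pseudocount, so it is no check of those genes. The counts of non-overlapping genes depend on how many libraries must be separated: they were 382 to 473 higher and 387 to 506 lower when 1 library was left out, 1133 and 1262 in group-housed libraries only, 1209 and 1248 in libraries labelled KO only, 543 and 583 without single-housed wild type, and 838 and 916 in libraries without Y-linked signal. List medians of high minus low that moved by more than the spread between libraries were as follows. With a minimum log2 value of 2, serine synthesis was 0.64 and transporters 0.34, and with a pseudocount of 0.1 serine synthesis was 0.67. As a mean within label groups, heat shock was −0.0029. In group-housed libraries only, transporters were 0.12, eIF2 regulators 0.075, endoplasmic reticulum chaperones −0.086, heat shock −0.014, neuropeptides 0.013, astrocytes −0.030, microglia −0.16, glucocorticoid-responsive genes 0.11 and clock genes 0.10. In libraries labelled KO only, transporters were 0.12, heat shock −0.0032, immediate early genes −0.12, neuropeptides −0.0022, cholesterol synthesis 0.057 and Y-linked genes 2.15. Without single-housed wild type, eIF2 regulators were 0.066, heat shock −0.0026 and neuropeptides 0.0099, and without Y-linked signal heat shock was 0.0045 and clock genes 0.066. The cause of these shifts was not tested. Fos and Egr1, at 0.63 and 0.64 over all libraries, were −0.32 and −0.22 in libraries labelled KO only. Slc7a3 differed by 3.17 and Ostn by 2.88 with the pseudocount of 0.1.

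Calls of the limma label comparisons are few and moved with the fit. With a pseudocount of 0.1, housing in mice labelled KO gave 2 and the interaction 0, and without a variance trend the interaction gave 0. Fitting only the groups compared gave 8 and 16 for housing in wild type and KO, and 8 and 9 for genotype in group and single housing. The term for high or low library left 1 for housing in wild type, and in the interaction it exchanged the 1 call for another. Leaving out 1 library gave 1 to 12, 1 to 8, 0 to 11, 5 to 9 and 0 to 8 calls in the 5 comparisons in the order of the text, with 12 in wild-type housing without CAGATC and 11 and 8 in group-housed genotype and in the interaction without AGTTCC. Leaving out 1 library kept the exact p for housing and genotype between 0.545 and 1. No paired analysis was possible because the columns carry no replicate numbers. Depth is unknown, so low genes such as Slc7a3, Trib3 and Ostn carry an unknown counting error.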
